A study of Mus musculus with 12 samples.

Results

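The UDP-glucuronosyltransferase (UGT), cytosolic sulfotransferase (SULT) and carboxylesterase (CES) genes were examined in whole liver of alcohol-fed (AF) and pair-fed (PF) mice. Members were all protein-coding genes of the count table whose GENCODE M21 symbol is that of a Ugt1a, Ugt2a, Ugt2b, Ugt3a, Sult1 to Sult6 or Ces1 to Ces5 gene. This gave 61 genes of 54232 gene IDs, with 21 UGT, 21 SULT and 19 CES genes. The rule itself uses gene names and no measured value, but the families were picked with earlier results of these data known.

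Liver mRNA was sequenced with 1 library per mouse, in 5 PF and 7 AF mice of an intragastric feeding model of alcohol-associated steatohepatitis (ASH). All 12 mice were C57BL6/J males, labelled 8-week, and the labels give no genetic change. PF mice received a high-fat liquid diet by the intragastric route, and AF mice received a liquid diet of the same calories in which ethanol was raised to 27 g/kg/day over 8 weeks. AF mice also had a weekly binge of 5 g/kg, and the methods describe a solid diet rich in cholesterol and saturated fat that was eaten freely beside the liquid diet. Livers were collected at a single point, the day after the last binge, so acute and chronic exposure cannot be told apart. Because whole tissue was measured, fewer cells of a type and less RNA per cell cannot be told apart either.

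UGT enzymes sit in the endoplasmic reticulum and join glucuronic acid, taken from UDP-glucuronate, to bilirubin, steroids, bile acids and drugs. SULT enzymes work in the cytosol and pass sulfate from the donor PAPS to phenols, steroids and bile acids, and both reactions make products that leave the hepatocyte through membrane transporters. CES enzymes cut ester bonds, which activates or inactivates many drugs and releases fatty acids from stored lipids.

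The 9 Ugt1a genes share a single locus on chromosome 1 (GRCm38), where each gene has its own first exon and all use the same later exons. A read on the shared exons cannot be given to 1 gene, and HTSeq by default sets such reads aside. If the authors used that default, which the sources used here do not state, the values of these genes rest mainly on the bases of the first exons. The ends of the exons just before the shared ones are shown for 4 genes that carry most of the signal of the locus. Of these, Ugt1a9 rose, Ugt1a5 and Ugt1a6b fell and Ugt1a1 made no call. Each line holds the last 30 bases of such an exon in lower case. The first 30 bases of the next exon (chr1:88215044-88215175, plus strand), which is the same in all 4 genes, are in capitals.
Ugt1a1: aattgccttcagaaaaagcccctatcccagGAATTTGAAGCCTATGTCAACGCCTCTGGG
Ugt1a5: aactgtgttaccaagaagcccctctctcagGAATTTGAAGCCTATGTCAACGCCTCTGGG
Ugt1a6b: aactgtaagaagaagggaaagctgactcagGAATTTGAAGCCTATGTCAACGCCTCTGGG
Ugt1a9: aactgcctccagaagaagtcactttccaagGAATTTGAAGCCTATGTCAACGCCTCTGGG
These exons lie at chr1:88211959-88212871 (Ugt1a1), chr1:88166012-88166903 (Ugt1a5), chr1:88106941-88107799 (Ugt1a6b) and chr1:88070800-88071678 (Ugt1a9), all on the plus strand. The Ugt1a6b transcript used has 6 exons, against 5 in the others, and the gene starts at 88103252. Its exon shown here may therefore not be the first.

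Promoters were taken from RefSeq (GRCm38.p6) as the 250 bases before the annotated start. A promoter was found for 51 of the 61 members, with 55 entries. GTTAAT, letters of a site of HNF1, a transcription factor of hepatocytes, was searched on both strands, and ATTAAC is its reverse complement. It was present in 15 of 55 member promoters (27.3%), against 6.43% of all 32851 promoters of that length. By family these were 6 of 19 UGT, 7 of 20 SULT and 2 of 16 CES promoters. They include those of Sult2a3, Sult2a4, Sult2a5, Sult2a6, Sult3a2 and Ces5a, which had too few reads in these livers to test. Related genes of a family were counted as separate promoters. TATAAA was in 13 of 55 (23.6%, all promoters 12.4%), and TTCNNNGAA, the spacing of a STAT site, was in 4 of 55 (7.27%, all promoters 7.02%). GCGTG, the core of a xenobiotic response element, was in 5 of 55 (9.09%, all promoters 28.2%). TGACNNNGC, the core of an antioxidant response element, was in 0 of 55 (all promoters 10.2%). Each motif was searched on both strands, and matches of different motifs could overlap. A match is a description of the letters and not a measured site. The promoters of Ugt1a9 and Ugt1a5, genes of 1 locus that moved in opposite directions, and of Ces3b are printed as examples, with GTTAAT or ATTAAC in capitals where present.
Ugt1a9: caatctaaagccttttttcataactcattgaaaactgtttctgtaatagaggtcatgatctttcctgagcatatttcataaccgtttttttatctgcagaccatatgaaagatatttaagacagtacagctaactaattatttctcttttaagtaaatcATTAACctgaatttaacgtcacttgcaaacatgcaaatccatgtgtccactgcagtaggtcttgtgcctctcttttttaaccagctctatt
Ugt1a5: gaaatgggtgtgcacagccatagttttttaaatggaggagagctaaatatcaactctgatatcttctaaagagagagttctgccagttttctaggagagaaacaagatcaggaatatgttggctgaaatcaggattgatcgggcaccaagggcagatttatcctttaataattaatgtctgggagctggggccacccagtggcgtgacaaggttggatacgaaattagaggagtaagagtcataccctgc
Ces3b: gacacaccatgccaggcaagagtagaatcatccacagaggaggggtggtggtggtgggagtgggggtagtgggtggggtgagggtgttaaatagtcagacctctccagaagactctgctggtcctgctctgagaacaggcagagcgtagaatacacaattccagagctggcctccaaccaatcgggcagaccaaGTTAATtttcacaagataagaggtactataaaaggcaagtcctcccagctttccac
They lie at chr1:88070529-88070778, chr1:88165762-88166011 and chr8:105083505-105083754, all on the plus strand, and hold 1, 0 and 1 match.

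Between 24129900 and 28594027 reads per PF liver, and between 25099033 and 30578639 per AF liver, had been counted on genes. Counts were scaled to CPM (counts scaled to an equal library size) with TMM factors, and AF was compared to PF with the quasi-likelihood test of edgeR with Benjamini-Hochberg adjustment over all genes at a threshold of 0.05. Of 14168 genes with enough reads to test, 39.8% made a call, 22.0% higher and 17.8% lower in AF livers. The hepatocyte markers checked (Alb, Ttr, Apoa1, Tat and Cps1) had sums of 87269 to 129157 CPM (PF) and 45723 to 93682 CPM (AF). In AF, 3 of the 5 were lower.

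Members took 1.27 ± 0.0938% (SD, n = 5) of the reads in PF and 0.970 ± 0.262% (n = 7) in AF livers. Of the 61 members, 40 had enough reads to test, 17 UGT, 9 SULT and 14 CES genes, and 6 had no read in any library. In AF livers, 16 of the 40 tested members were lower (40%) and 5 were higher (12.5%), so that 52.5% made a call. The filter asked for 0.370 CPM in at least 5 of the 12 libraries, and 33 members reached that level in 5 or more livers of each group. The other 7 did so in 1 group alone, Ces2h, Ces4a, Ugt2b38, Sult2a7 and Ugt1a10 in PF and Sult2a2 and Ugt1a7c in AF livers, which favours a difference, and 6 of them made a call. Among the 33, 12 were lower and 3 higher. Of the 19 tested members without a call, 14 gained one in at least 1 other setting, 7 of them with limma-voom (Ces1c, Ces2a, Sult1c2, Sult5a1, Ugt1a10, Ugt2b1 and Ugt3a1, all lower). The median log2 fold change was -0.82 over the 40 members and 0.04 over all genes tested. The groups did not overlap in 13 members that were lower in every AF liver, against 9.49% of all genes tested, and in 3 that were higher in every AF liver, against 8.20% of all genes tested.

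With TMM scaling, all 3 families had a lower mean total in AF livers, by different amounts. The TMM factors were 0.832 to 0.901 in PF and 0.880 to 1.36 in AF livers, and a larger factor lowers the CPM. The lower UGT mean depends on this scaling, and the sums were not compared under other settings. The UGT sum was 5355 ± 267 CPM in PF and 4368 ± 1861 CPM in AF livers, and the AF values lay on both sides of the PF values. The SULT sum was 1419 ± 138 CPM in PF and 703 ± 181 CPM in AF, with every AF liver below every PF liver. The CES sum was 7830 ± 999 CPM in PF and 4086 ± 1769 CPM in AF, also with no overlap. The hepatocyte markers moved in the same direction as these sums, and their part in the result was not tested.

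**Figure D1:**
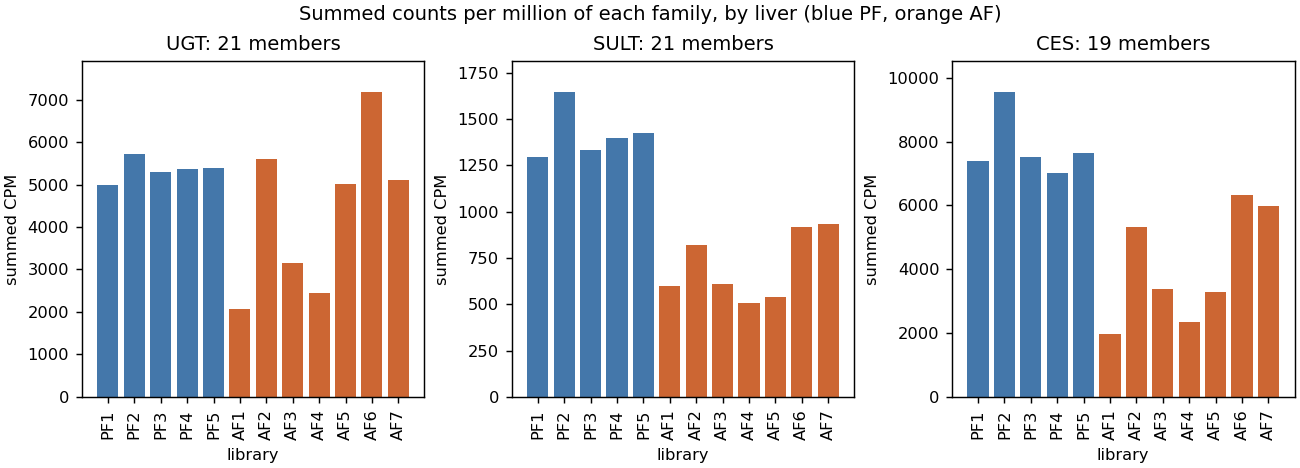
Summed CPM of the UGT, SULT and CES genes in each of the 12 livers, with 1 bar per library (blue PF, orange AF; axes start at 0). SULT sums were 1293 to 1648 CPM in PF and 506 to 931 CPM in AF livers, while the UGT sums of AF livers ran from 2074 to 7189 CPM and overlapped those of PF livers.

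**Figure D2:**
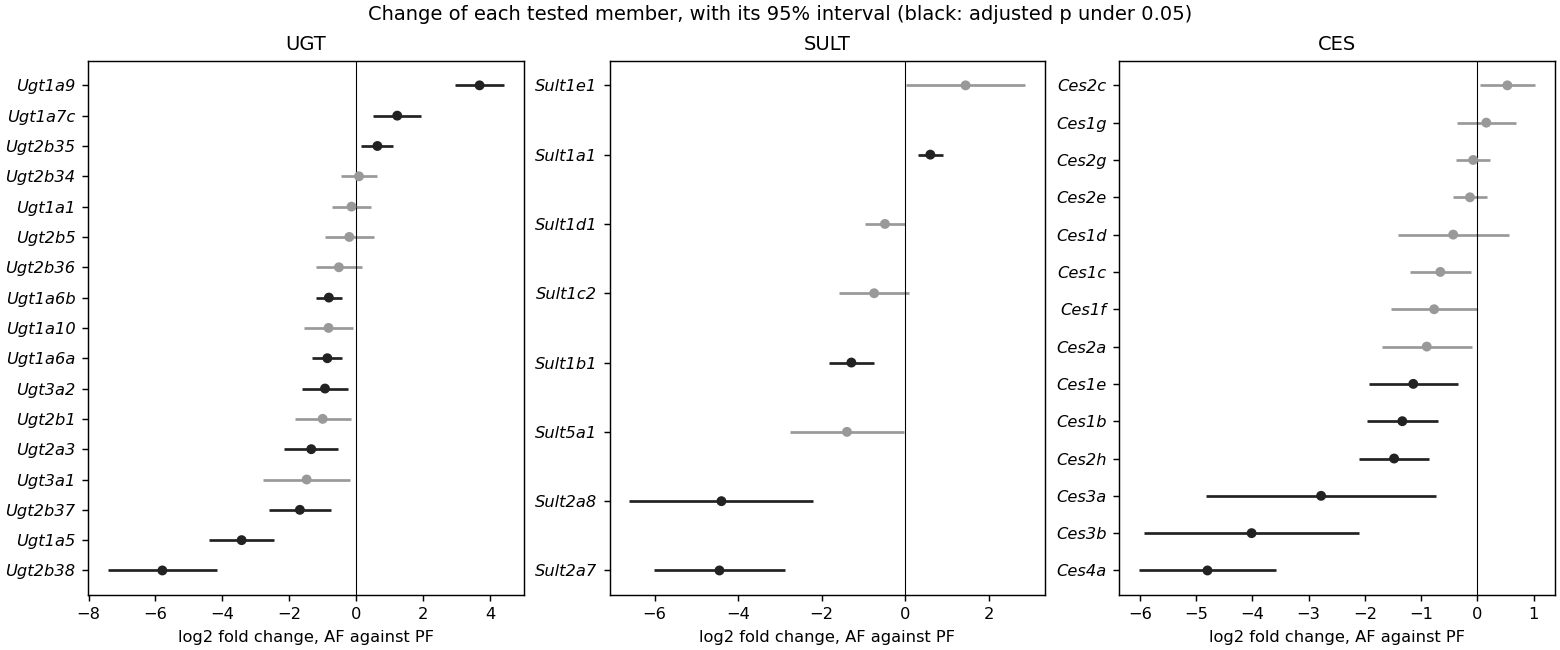
Log2 fold change of AF against PF for the tested members of each family, with the 95% interval of the edgeR fit as a line. Black marks adjusted p under 0.05, and Sult2a2, which had no reads in PF livers, is left out. Ugt1a9 had the largest rise drawn (3.69) and Ugt2b38 the largest fall (-5.79).

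Among the UGT genes, 3 were higher (Ugt1a9, Ugt1a7c and Ugt2b35), 7 were lower (Ugt2b38, Ugt1a5, Ugt2b37, Ugt2a3, Ugt3a2, Ugt1a6a and Ugt1a6b) and 7 made no call. These are 17.6% higher and 41.2% lower, against 22.0% and 17.8% of all genes tested. The median log2 fold change of the family was -0.83. Within the Ugt1a locus, Ugt1a9 rose 12.9-fold while Ugt1a5 fell 10.7-fold and Ugt1a1 made no call.

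Ugt1a9 (ENSMUSG00000090175) encodes an enzyme of phenol glucuronidation. PF livers had 11.2, 14.7, 14.7, 17.2 and 15.6 CPM. AF livers had 91.2 CPM at the lowest, 159.8 at the median and 314 at the highest. Every AF liver was above every PF liver, with AF1 lowest and AF6 highest among the AF livers. edgeR's test gave a log2 fold change of 3.69 (SE 0.336, edgeR adjusted p = 8.78e-06). The exact two-sided permutation test of log2(CPM + 0.1) over all splits of the livers into 5 and 7 gave p = 0.00126, the smallest that it can give.

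Ugt1a5 (ENSMUSG00000089943) lies next downstream of Ugt1a6a in the same locus. Its PF values were 39.5, 35.5, 61.6, 45.4 and 48.1 CPM. Its AF values ran from 1.61 over a median of 2.41 to 12.7 CPM. All 7 AF livers were below the PF range, and AF7 stood above the other AF livers, of which the next was at 4.85 CPM. AF against PF, this was a log2 fold change of -3.42 (SE 0.456, edgeR adjusted p = 1.61e-04).

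Ugt1a1 (ENSMUSG00000089960) encodes the enzyme that conjugates bilirubin, and its first exon was the most abundant of the locus in both groups. In PF livers it was at 245, 343, 329, 292 and 314 CPM. The AF livers ranged from 141 to 419 CPM with a median of 269 CPM, 3 of them above and 3 below the PF range. No difference was called, with a log2 fold change of -0.14 (95% interval -0.74 to 0.46, edgeR adjusted p = 0.709). With the replicate number as a block, Ugt1a1 was called lower (edgeR adjusted p = 0.0356). No PF liver has the numbers of AF6 and AF7, so the block leaves these 2 livers out of the comparison.

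Ugt1a6a and Ugt1a6b are near-identical genes whose enzymes conjugate small flat phenols and serotonin. Ugt1a6a was at 7.87, 10.9, 11, 7.43 and 5.66 CPM in PF livers. In AF livers it ran from 3.08 to 6.89 CPM (median 4.80), 6 of 7 below the PF range. The change of its log2 level was -0.86 (SE 0.210, edgeR adjusted p = 0.00644). Ugt1a6b fell from 65.6 ± 5.31 CPM (SD, n = 5) to 37.3 ± 10.9 CPM (n = 7) with no overlap (log2 fold change -0.82, edgeR adjusted p = 0.00388). As reads of the near-identical pair may be split or set aside, the values of each are uncertain: 79.8% of the 50-base stretches of Ugt1a6b also occur in another gene's transcripts.

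Ugt1a7c was scarce and rose. PF livers had 0.886, 0.412, 1.04, 1.18 and 0.950 CPM. AF livers had 1.20 to 2.98 CPM (median 2.38), all above the PF range. In the fit, the log2 fold change was 1.23 (SE 0.332, edgeR adjusted p = 0.0111). Ugt1a10 was at 0.649 ± 0.167 CPM in PF and 0.369 ± 0.185 CPM in AF livers and made no call (edgeR adjusted p = 0.0719). Ugt1a2 and Ugt1a8 had at most 3 and 2 reads in a library and were not tested.

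The make-up of the locus was compared per length, as CPM per kb of exon that no other gene shares. Ugt1a9 made up 3.51 ± 0.413% of the summed Ugt1a level in PF livers and 37.8 ± 5.40% in AF livers. Ugt1a5 went from 10.8 ± 1.98% to 0.797 ± 0.451%, Ugt1a6b from 14.7 ± 1.19% to 7.54 ± 1.88% and Ugt1a1 from 69.8 ± 2.04% to 53.1 ± 5.06%. The groups did not overlap in any of these 4 shares. Only 385 of the 913 unshared bases of Ugt1a1 are also free of Gm20528, a gene model on the other strand, and the strand setting of the counting is not given. On bases unshared on either strand, a setting chosen after seeing the data, Ugt1a1 went from 84.6 ± 1.24% to 72.7 ± 3.89% and Ugt1a9 from 1.79 ± 0.223% to 22.0 ± 3.83%, again with no overlap. The ratio of Ugt1a5 to Ugt1a9 was 3.12 ± 0.704 in PF and 0.0220 ± 0.0130 in AF livers. Within the AF group it ran from 0.00830 (AF5) to 0.0458 (AF7), so each AF liver had more Ugt1a9 than Ugt1a5 per length and each PF liver had less. As these genes sit in 1 locus and share their later exons, the shares do not move independently.

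**Figure D3:**
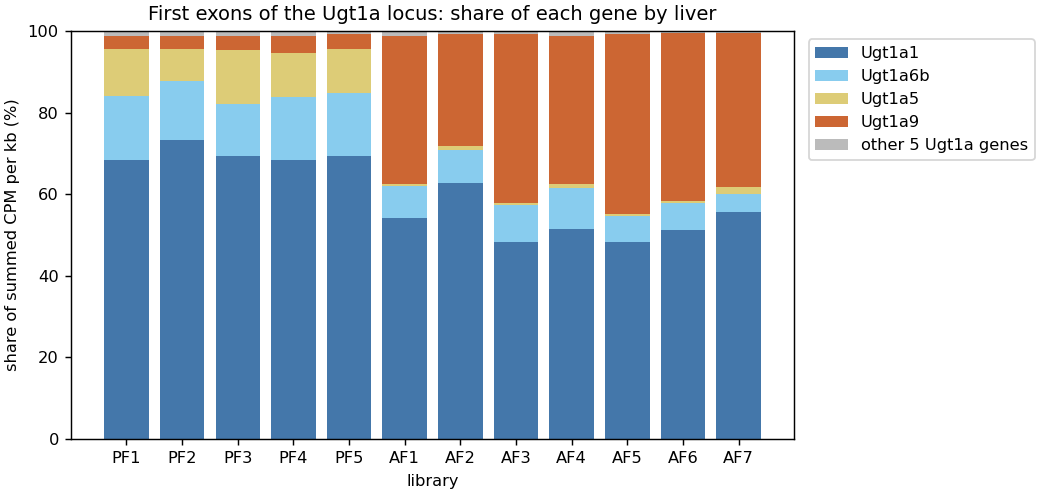
Share of each Ugt1a gene in the summed CPM per kb of unshared exon of the locus, with 1 stacked bar per liver. Ugt1a9 took 3.22 to 4.19% in PF and 27.5 to 44.2% in AF livers, and Ugt1a5 took 7.77 to 13.3% in PF livers but 0.366 to 1.73% in AF livers.

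The Ugt2b genes lie near each other on chromosome 5, with Ugt2a3 between Ugt2b37 and Ugt2b38. Their enzymes conjugate steroids and drugs. Ugt2b38 (ENSMUSG00000061906) was scarce in PF livers, at 7.53, 3.20, 0.917, 4.05 and 3.71 CPM. AF livers had from 0 to 0.372 CPM with a median of 0.0304 CPM, and 3 of them (AF1, AF2 and AF4) had no read. All AF livers were below the PF range, and AF6 was highest among them. The log2 fold change was -5.79 (SE 0.755, edgeR adjusted p = 1.37e-04) and -7.27 without AF6.

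Ugt2b37 was at 3.20, 0.869, 0.542, 1.69 and 1.45 CPM in PF livers. In AF livers it ran from 0.231 to 0.941 CPM (median 0.375), and 5 of 7 were below the PF range. Its log2 fold change was -1.68 (SE 0.434, edgeR adjusted p = 0.00865). Ugt2b35 moved the other way. It had 353, 335, 406, 401 and 412 CPM in PF livers. AF livers had 334 to 825 CPM (median 551), with 5 of 7 above and AF1 below the PF range. edgeR's test gave a log2 fold change of 0.63 (SE 0.222, edgeR adjusted p = 0.0363). This call was lost without any 1 of the PF livers, AF2, AF5 or AF6, with adjusted p of up to 0.0854, and with the replicate number as a block (edgeR adjusted p = 0.114).

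Per length, Ugt2b36 and Ugt2b5 were the most abundant UGT genes in PF livers, at 443 and 428 CPM per kb, followed by Ugt1a1 at 334. The ranges of Ugt2b36 and Ugt2b5 overlapped, and Ugt1a1 lay below that of Ugt2b5. The same 3 led in AF livers, at 309.6, 371 and 303 CPM per kb, with overlapping ranges. On bases unshared on either strand, Ugt1a1 would instead be first in both groups, at 791 CPM per kb in PF and 718 in AF livers, so its place in this order depends on the strand setting. Ugt1a9 moved from rank 12 of 17 in PF to rank 5 in AF livers, on either count of bases. Ugt2b36 had 935, 1001, 838, 865 and 920.3 CPM in PF livers. AF livers had 243 to 1081 CPM (median 552), with 5 below and 1 above the PF range. No difference was called (log2 fold change -0.52, 95% interval -1.19 to 0.16, edgeR adjusted p = 0.204). Ugt2b5 had 782, 945, 717, 768 and 759 CPM in PF livers. AF livers had 271 to 1453 CPM (median 614), with 4 below and 1 above the PF range. It made no call either (log2 fold change -0.21, 95% interval -0.94 to 0.52, edgeR adjusted p = 0.651), and it shares 41.7% of its 50-base stretches with other genes. Ugt2b1 was at 748 ± 92.1 CPM in PF and 374 ± 242 CPM in AF livers, with 6 of 7 AF livers below the PF range (edgeR adjusted p = 0.0551). Ugt2b34 was at 1001 ± 157 and 1061 ± 404 CPM (edgeR adjusted p = 0.812).

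Ugt2a3, whose enzyme conjugates bile acids, was at 299, 381, 260.1, 289 and 299.9 CPM in PF livers. In AF livers it ran from 46.5 to 233 CPM (median 97.1), all below the PF range. AF against PF, this was a log2 fold change of -1.34 (SE 0.375, edgeR adjusted p = 0.0129). Ugt2a1 and Ugt2a2, known from the olfactory lining, had 0 reads in all 12 libraries. Their exons overlap each other and those of the gene model Gm43638, which leaves only 30 and 140 bases unshared, so a count of 0 says little about them.

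The Ugt3a enzymes use sugars other than glucuronic acid. Ugt3a2 was at 714, 686, 585, 573 and 601 CPM in PF livers. AF livers had 145 to 552 CPM (median 245), all below the PF range. In the fit, the log2 fold change was -0.93 (SE 0.326, edgeR adjusted p = 0.0361). This call was lost without any 1 of the PF livers, AF1, AF3, AF4 or AF5, with adjusted p of up to 0.0711. Ugt3a1 went from 134 ± 12.9 CPM to 48.1 ± 44.1 CPM, also with no overlap. The AF livers lay far apart, from 6.35 to 108 CPM, and no difference was called (log2 fold change -1.48, edgeR adjusted p = 0.0669, exact permutation p = 0.0114).

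Among the SULT genes, 2 were higher (Sult1a1 and Sult2a2), 3 were lower (Sult2a8, Sult2a7 and Sult1b1) and 4 made no call, with a median log2 fold change of -0.75. The share higher, 22.2%, is that of all genes tested (22.0%), and 33.3% were lower, against 17.8% of all genes tested. Per length, Sult2a8 was first in PF livers at 252 CPM per kb, with a range that overlapped that of Sult1a1 (209.6 CPM per kb). In AF livers Sult1a1 was first at 318 CPM per kb and Sult2a8 was at 11.9.

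Sult2a8 (ENSMUSG00000030378) encodes a bile acid sulfotransferase of mouse liver. PF livers had 732, 1013, 767, 781 and 846 CPM. AF livers had 1.32 CPM at the lowest, 4.37 at the median and 105 at the highest. All AF livers were below the PF range and they parted widely, since AF1, AF3, AF4 and AF5 had 1.32 to 4.37 CPM while AF2, AF6 and AF7 had 72.1 to 105 CPM. The log2 fold change was -4.40 (SE 1.02, edgeR adjusted p = 0.00491), a 21.1-fold fall. The size depends on the model, with -6.34 by limma-voom. It was -7.52 with the replicate number as a block, which leaves AF6 and AF7 out of the comparison. Its share of the summed SULT level per length went from 43.6 ± 2.22% to 2.44 ± 2.78%.

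Sult2a7 (ENSMUSG00000094156), the neighbour of Sult2a8 on chromosome 7, was at 16.2, 5.49, 17.5, 6.61 and 9.27 CPM in PF livers. In AF livers it ran from 0.0285 to 1.92 CPM (median 0.182). All AF livers were below the PF range, and AF2 and AF6 were highest among them. edgeR's test gave a log2 fold change of -4.45 (SE 0.723, edgeR adjusted p = 6.30e-04) and -5.30 without AF2.

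Sult2a2 (ENSMUSG00000070811) is a hydroxysteroid sulfotransferase known to be far more abundant in female than in male mouse liver. It had 0 reads in all 5 PF livers. The AF livers had 0 CPM in AF6, 5.42 CPM at the median and 12.5 CPM in AF7, the highest. The gain was therefore not in every AF liver, as AF6 had no read and AF2 had 1 read. Taking 3 counts per PF library as the limit that a count of 0 allows, the AF mean of 4.50 ± 4.64 CPM was at least 33.9-fold higher (edgeR adjusted p = 0.0128), and limma-voom gave an adjusted p of 0.0788. The gene shares 62.1% of its 50-base stretches with other genes, 41.3% with Sult2a1, so the counts of the pair are uncertain. Sult2a2 passed the count filter through AF livers only, so its call was favoured by the filter. Sult2a1 itself had too few reads to test, with 1 read over the 5 PF livers and 27, 0, 69, 22, 2, 0 and 20 reads in AF1 to AF7. Sult2a5 had no read in PF and up to 17 reads in AF livers.

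Sult1a1 (ENSMUSG00000030711), the main phenol sulfotransferase of liver, was at 299.9, 354, 301, 316 and 309 CPM in PF livers. AF livers had 363 to 607 CPM (median 471), and every AF liver was above every PF liver. AF against PF, this was a log2 fold change of 0.60 (SE 0.136, edgeR adjusted p = 0.00434). Its share of the summed SULT level per length was 36.4 ± 0.746% in PF and 78.1 ± 5.85% in AF livers.

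Sult1b1, whose enzyme acts on thyroid hormones and phenols, fell. It was at 27.2, 30.5, 26.8, 24.3 and 23.6 CPM in PF livers. AF livers had 4.74 to 17.9 CPM (median 9.29), all below the PF range. In the fit, the log2 fold change was -1.29 (SE 0.253, edgeR adjusted p = 0.00188). Its neighbours Sult1d1, which acts on catecholamines, and Sult1e1, the oestrogen sulfotransferase, made no call. Sult1d1, behind Sult2a8 and Sult1a1 in level per length in PF livers, was at 195, 225, 207, 251 and 224 CPM. In AF livers it ran from 83.2 to 242 CPM (median 144), 5 of 7 below the PF range (log2 fold change -0.49, 95% interval -0.97 to -0.0016, edgeR adjusted p = 0.0999). Sult1e1 was at 0.865 ± 0.289 CPM in PF and 2.36 ± 1.78 CPM in AF livers (edgeR adjusted p = 0.0982), with 4 AF livers above and AF5 below the PF range. Sult1c2 was at 7.50 ± 1.17 and 4.50 ± 2.79 CPM (edgeR adjusted p = 0.139) and Sult5a1 at 9.08 ± 4.24 and 3.48 ± 3.47 CPM (edgeR adjusted p = 0.0962).

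The other SULT genes had too few reads to test. The highest count in a library was 32 for Sult4a1 (AF1), a gene of the brain, 23 for Sult2b1 (AF1), a cholesterol sulfotransferase, 20 for Sult3a1 (AF2) and 11 for Sult2a3 (AF7). Sult2a4, Sult3a2 and Sult6b2 had at most 1 read in a library. No read was counted for Sult1c1, Sult2a6 and Sult6b1, which allows up to 3 reads in a library, so these genes were not detectable at this depth.

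**Figure D4:**
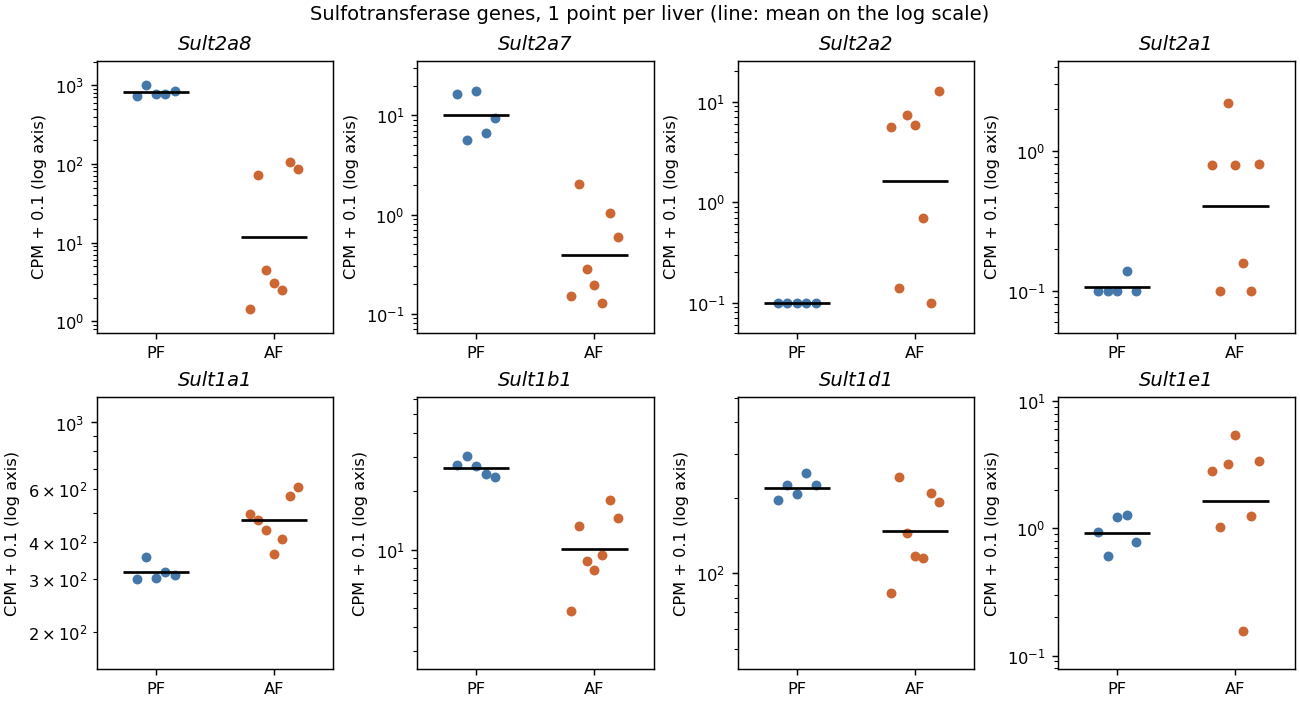
CPM + 0.1 of 8 sulfotransferase genes on a log axis, with 1 point per liver (blue PF, orange AF) and the mean on the log scale as a line. The AF livers formed a low and a high cluster of points for Sult2a8, at 1.32 to 4.37 and 72.1 to 105 CPM, all below PF, and Sult1a1 was higher in all AF livers.

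Of the 14 tested CES genes, 0 were called higher by edgeR, 6 were lower (Ces4a, Ces3b, Ces3a, Ces2h, Ces1b and Ces1e) and 8 made no call, with a median log2 fold change of -0.84. The share called, 42.9%, is near the 39.8% of all genes tested, of which 17.8% were lower. At an unadjusted p under 0.05, 1 of these (Ces2c) was higher, and it was called with upper-quartile factors, with library totals and without AF1 or AF7. limma-voom called 0 CES genes higher and DESeq2 called 1, Ces1h, which had too few reads for the edgeR fit. The deepest falls were in Ces3a, Ces3b and Ces4a, 3 adjacent genes on chromosome 8 (chr8:105048601-105150109, plus strand, GRCm38). The Ces1 genes, which lie together elsewhere on that chromosome, summed to 4904 ± 742 CPM in PF and 3256 ± 1354 CPM in AF livers.

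Ces3a (ENSMUSG00000069922), an esterase of the hepatocyte endoplasmic reticulum, was the CES gene with the second highest level per length in PF livers (716 CPM per kb). PF livers had 1983, 2255, 1693, 1695 and 1779 CPM. AF livers had 8.11 CPM at the lowest, 92.3 at the median and 905 at the highest. All AF livers were below the PF range, with AF2 and AF6 far above AF1 and AF5. The log2 fold change was -2.78 (SE 0.947, edgeR adjusted p = 0.0326), -3.48 without AF6 and -4.31 by limma-voom. It was -5.41 with the replicate number as a block, which leaves AF6 and AF7 out of the comparison. The call was lost without any 1 of the PF livers, AF3, AF4 or AF7, with adjusted p of up to 0.0591.

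Ces3b (ENSMUSG00000062181) was at 399, 443, 330.0, 309 and 308 CPM in PF livers. AF livers had 0.399 to 72.2 CPM (median 10.9). All were below the PF range, with AF5 and AF1 lowest and AF2 and AF6 highest. edgeR's test gave a log2 fold change of -4.01 (SE 0.887, edgeR adjusted p = 0.00377) and -4.71 without AF2. The ratio of Ces3b to Ces3a per length was 0.194 ± 0.0117 in PF and 0.113 ± 0.0654 in AF livers, 5 of 7 below and 1 above the PF range. The pair shares 25.6% (Ces3a) and 26.2% (Ces3b) of its 50-base stretches with other genes.

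Ces4a (ENSMUSG00000060560) was scarce, at 1.77, 1.51, 0.833, 1.22 and 2.17 CPM in PF livers. AF livers had from 0 to 0.143 CPM (median 0.0259), and AF3, AF6 and AF7 had no read. Every AF liver was below every PF liver. AF against PF, this was a log2 fold change of -4.80 (SE 0.565, edgeR adjusted p = 6.74e-05). AF6, highest among AF livers in Ces3a, had no read of Ces4a. With 0 to 5 reads of Ces4a per AF liver, the order of these livers cannot be compared with that of Ces3a and Ces3b.

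Ces2h was also scarce, at 0.541, 0.549, 0.708, 0.629 and 0.452 CPM in PF livers. AF livers had 0.0938 to 0.317 CPM (median 0.182), all below the PF range. Its log2 fold change was -1.48 (SE 0.291, edgeR adjusted p = 0.0019), in a gene that passed the count filter through PF livers only. The other Ces2 genes, whose enzymes cut drug esters and acylglycerols, made no call. Ces2a was at 331 ± 35.1 CPM in PF and 177 ± 115 CPM in AF livers, with 6 of 7 AF livers below the PF range and AF2 above it (edgeR adjusted p = 0.0672). Ces2c was at 60.0 ± 9.35 and 86.7 ± 32.4 CPM (edgeR adjusted p = 0.0766), Ces2e at 225 ± 19.8 and 206 ± 40.5 CPM (edgeR adjusted p = 0.474) and Ces2g at 66.9 ± 4.94 and 63.4 ± 13.9 CPM (edgeR adjusted p = 0.682). The 95% intervals of the log2 fold changes of Ces2e and Ces2g were -0.44 to 0.17 and -0.38 to 0.22.

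Ces1c (ENSMUSG00000057400), the secreted esterase of mouse plasma, was the most abundant member per length in both groups (1458 CPM per kb in PF and 923 in AF livers). PF livers had 3296, 4088, 3199, 2963 and 3387 CPM. AF livers had 1197 to 3479 CPM (median 1862), 6 of 7 below the PF range. The log2 fold change of -0.66 (95% interval -1.21 to -0.12) did not pass the threshold (edgeR adjusted p = 0.0524), while it did with DESeq2, RLE factors and limma-voom.

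Ces1b was at 71.7, 123, 55.0, 48.3 and 56.9 CPM in PF livers. AF livers had 17.9 to 57.6 CPM (median 24.8), and all but AF6 were below the PF range. In the fit, the log2 fold change was -1.34 (SE 0.295, edgeR adjusted p = 0.00372). Ces1e, known as egasyn and as the anchor of beta-glucuronidase in the endoplasmic reticulum, was at 87.6, 148, 140.2, 125 and 131 CPM in PF livers. AF livers had 19.8 to 107 CPM (median 51.7), 5 of 7 below the PF range. Its log2 fold change was -1.14 (SE 0.366, edgeR adjusted p = 0.0251), and the call was lost without PF2 or PF3 (adjusted p of up to 0.0562).

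Ces1d, a triacylglycerol hydrolase, followed Ces1c and Ces3a in level per length in PF livers. It was at 335, 863, 622, 524 and 537 CPM in PF livers. AF livers had 96.0 to 787 CPM (median 327), 4 of 7 below and none above the PF range. No difference was called (log2 fold change -0.43, 95% interval -1.42 to 0.56, edgeR adjusted p = 0.473). With the replicate number as a block, which leaves AF6 and AF7 out of the comparison, Ces1d was called lower (edgeR adjusted p = 0.0106). Over all settings its log2 fold change reached -1.17. Ces1f went from 436 ± 104 to 256 ± 131 CPM (edgeR adjusted p = 0.097), and Ces1g, a lipid esterase, was at 308 ± 42.9 and 344 ± 121 CPM (edgeR adjusted p = 0.632). Ces1h had too few reads to test, with 1 read over the 5 PF livers and 4, 5, 11, 6, 17, 21 and 14 reads in AF1 to AF7. Ces1a, Ces2b and Ces2f had at most 6, 11 and 1 reads in a library, and Ces5a, an esterase of the urinary and male reproductive tracts, had none.

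**Figure D5:**
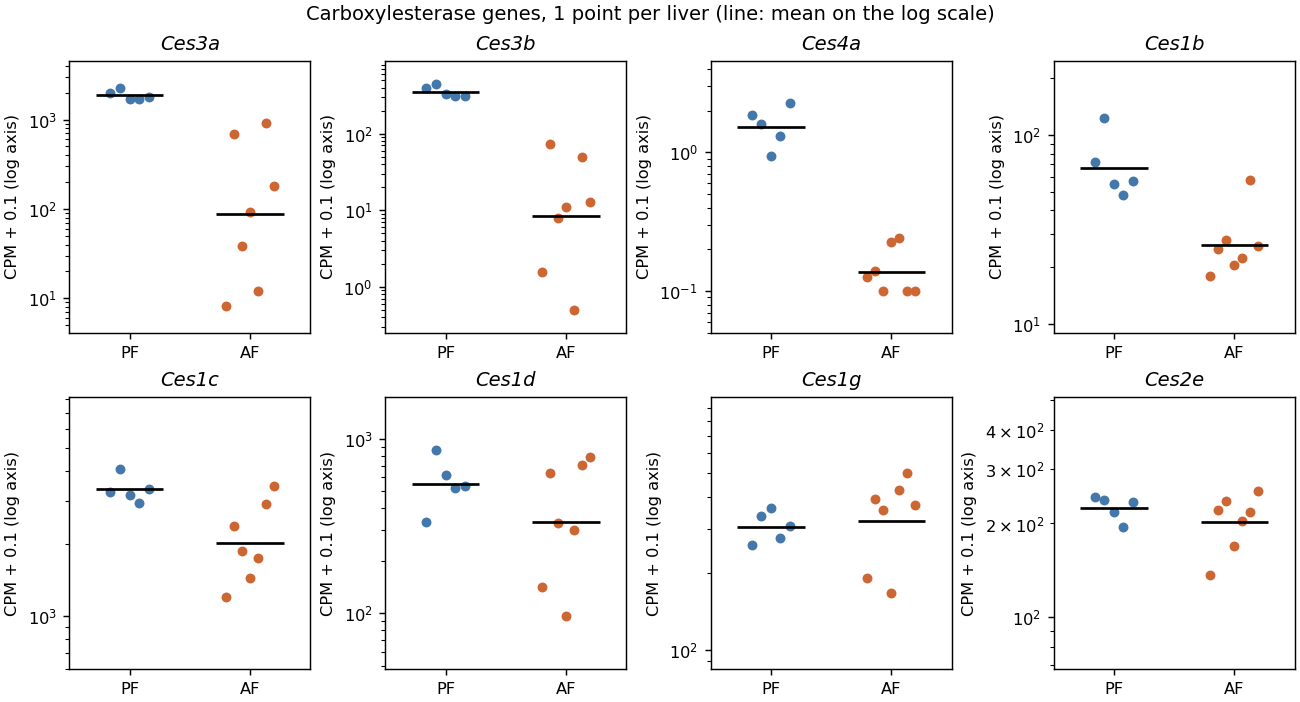
CPM + 0.1 of 8 carboxylesterase genes on a log axis, with 1 point per liver (blue PF, orange AF) and the mean on the log scale as a line. Ces3a, Ces3b and Ces4a were lower in every AF liver, and the AF points of Ces3a spread from 8.11 to 905 CPM, while those of Ces2e (136 to 255 CPM) overlapped PF.

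The AF livers differed among themselves more than the PF livers did. The coefficient of variation was larger in AF than in PF for 37 of the 39 members with reads in both groups, with a median of 15% in PF and 51.2% in AF livers. Over all genes tested it was larger in AF for 10051 of 14164 genes, with medians of 15% and 21.0%. Among the 16 members that were lower, AF1 had the lowest value of the AF livers in 11, in 1 of them (Ugt2b38) tied with AF2 and AF4 at 0 reads. The highest value was in AF6 for 7, in AF7 for 4, in AF2 for 3 and in AF5 for 2 of them. AF1 also had the smallest summed member level (4626 CPM), and AF6 the largest (14432 CPM) of the AF livers.

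Of 43 cofactor and partner genes listed, 42 were found and 41 were tested, of which 8 were higher, 11 were lower and 22 made no call, with a median log2 fold change of -0.19. Over all genes tested, 39.8% made a call (22.0% higher and 17.8% lower). More genes were thus higher than lower there, while more were lower than higher among the partner genes. The counts of these lists are descriptions only. The genes that supply UDP-glucuronate were higher or made no call. Ugdh, which makes UDP-glucuronate, went from 202 ± 18.8 to 368 ± 97.1 CPM (log2 fold change 0.87, edgeR adjusted p = 0.00234), and 2 of the 5 genes of this group were higher. The genes that supply PAPS were higher in 1, lower in 3 and without a call in 3 of 7, and 1 of the lower genes, Papss1, changed sign (log2 fold change 0.0812) where library totals were used without TMM factors. Papss1 also lost its call with a filter at 1 count, and Papss2 with library totals. The 1 higher gene, Slc35b2, lost its call with the replicate number as a block and without PF2, PF3, PF4 or PF5 (adjusted p up to 0.0796). Gusb, the beta-glucuronidase that removes glucuronic acid again, went from 45.5 ± 6.00 to 78.7 ± 16.6 CPM (log2 fold change 0.79, edgeR adjusted p = 0.0015).

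Transporters moved in both directions, with 2 higher, 3 lower and 3 without a call of 8. Abcc4, a basolateral exporter of conjugates, rose from 7.69 ± 3.16 to 256 ± 143 CPM (log2 fold change 5.05, edgeR adjusted p = 5.85e-06). Abcc3, another such exporter, rose from 260.3 ± 33.9 to 500.2 ± 161 CPM (log2 fold change 0.94, edgeR adjusted p = 0.00507). Among the uptake carriers, Slco1a1 fell from 345 ± 161 to 0.167 ± 0.251 CPM (edgeR adjusted p = 3.51e-07), Slco1b2 from 1814 ± 104 to 859 ± 380.1 CPM (edgeR adjusted p = 0.0122) and the bile salt carrier Slc10a1 from 696 ± 96.2 to 351 ± 186 CPM (edgeR adjusted p = 0.0284), while Slco1a4 made no call (edgeR adjusted p = 0.337). The log2 fold change of Slco1a1 was -11.1, and it was -10.8 to -13.2 over the other settings, with AF6 (0.670 CPM) highest among the AF livers. The call of Slc10a1 was lost without any 1 of PF1, PF2, PF3, AF3, AF4 or AF5, with adjusted p of up to 0.0645. Of the 6 other esterases tested, 1 was higher and 1 lower, the latter being Aadac, a microsomal deacetylase, which went from 674 ± 57.2 to 276 ± 56.7 CPM (edgeR adjusted p = 6.06e-05).

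Of 14 receptors and regulators of these families, 1 was higher and 4 were lower, against 39.8% of all genes tested called. Ppara, the fatty acid receptor, fell from 119 ± 18.5 to 47.1 ± 27.0 CPM (log2 fold change -1.34, edgeR adjusted p = 0.00462). Ahr fell from 89.9 ± 19.9 to 62.5 ± 16.6 CPM (edgeR adjusted p = 0.0398), a call lost with upper-quartile factors and in other settings. The other lower genes were Esr1 and Nr3c1. The higher gene was Nfe2l2 (NRF2), from 86.3 ± 10.1 to 131 ± 31.8 CPM (edgeR adjusted p = 0.0107). Nr1i3 (CAR) made no call (edgeR adjusted p = 0.88). Genes used as markers of receptor activity were higher in 5 of 7, against 22.0% of all genes tested. Nqo1, a marker of NRF2, rose from 10.2 ± 2.24 to 63.7 ± 24.1 CPM and Gclc, another, from 259 ± 35.2 to 655 ± 293 CPM (edgeR adjusted p = 1.58e-05 and 0.00234). Cyp2b10, a marker of the receptor CAR, rose from 669.5 ± 413 to 1919 ± 835 CPM (edgeR adjusted p = 0.0181) and Cyp4a14, a marker of PPARA, from 6.32 ± 5.91 to 102 ± 126 CPM (edgeR adjusted p = 0.0065). For Cyp2b10, PF1 and PF2 (221 and 240 CPM) lay far below PF3 to PF5 (877 to 1125 CPM), and AF4 (868 CPM) lay within the PF range. For Cyp4a14, AF7 was far above the other AF livers at 367 CPM, and AF2 (14.7 CPM) lay within the PF range (up to 15.1 CPM). Cyp1a1, a marker of AHR, rose from 1.35 ± 0.424 to 2.51 ± 1.23 CPM (edgeR adjusted p = 0.0468), with 4 of 7 AF livers above the PF range. Cyp1a2 and Cyp3a11 made no call (edgeR adjusted p = 0.112 and 0.749).

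Markers of some other cell types were higher in AF livers, against 22.0% of all genes tested. These were 4 of 5 cholangiocyte, 3 of 4 Kupffer cell, 3 of 4 recruited macrophage and 4 of 5 stellate cell and fibroblast markers. Of the 4 sinusoidal endothelium markers, 1 was higher, which is near the share of all genes tested. The 4 neutrophil markers made no call (43.9 to 722 CPM summed in PF and 26.4 to 144 CPM in AF livers), nor did the 4 T and B cell markers (1.28 to 4.66 and 1.15 to 2.82 CPM). Kupffer cell markers summed to 336 to 481 CPM in PF and 360 to 1054 CPM in AF livers, and endothelium markers to 87.1 to 174 and 124 to 191 CPM. Summed recruited macrophage markers were 6.18 to 25.7 CPM in PF and 25.6 to 464 CPM in AF livers, and stellate cell and fibroblast markers 159 to 395 and 344 to 865 CPM. Cholangiocyte markers summed to 49.5 to 244 CPM in PF and 70.3 to 1089.8 CPM in AF livers. Most of this sum was Spp1 (1048 CPM in AF1), which made no call (edgeR adjusted p = 0.0635). Krt7, Krt19, Epcam and Sox9 were also highest in AF1. AF1, which had the lowest values in most of the lower members, had the highest sums of the cholangiocyte, recruited macrophage and stellate cell lists and the lowest Kupffer cell sum of the AF livers, and the part of these cells in the result was not tested. The intestinal markers, of interest because Ces2, Ugt and Sult1b1 genes are also used in the gut, made no call in the 1 gene tested (summed 37.9 to 65.3 CPM in PF and 32.8 to 66.2 CPM in AF livers), and Alpi, a defining marker, had 0 reads in all libraries. The pancreas markers, summed 7.75 to 16.2 CPM in PF and 7.39 to 12 CPM in AF livers, made no call in the 1 gene tested.

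Sex-biased liver genes also moved. In these male mice, 4 of 5 male-biased genes were lower and 4 of 5 tested female-biased genes were higher in AF livers, against 17.8% lower and 22.0% higher of all genes tested. The male-biased genes summed to 7000.1 to 10887 CPM in PF livers. Among the AF livers the sum was 304 CPM in AF1, 3497 in AF2, 948 in AF3, 588 in AF4, 841 in AF5, 5652 in AF6 and 962 in AF7. AF6 and AF2 were thus highest in this list, as they were in Ces3a and Ces3b, whereas Sult2a8 was also among its higher AF values in AF7. The female-biased genes summed to 24.4 to 71.4 CPM in PF and 536 to 3732 CPM in AF livers, with AF2 lowest and AF5 highest, whereas Sult2a2 had no read in AF6 and was highest in AF7. The part of sex-biased expression in the changes of these families was not tested.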

How the data were processed

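Whole liver poly(A) RNA of 5 PF and 7 AF mice had been sequenced with 1 stranded library per mouse. The authors aligned the reads to mm10 (GRCm38) with TopHat2 2.0.13 after FastQC 0.10.1, and deposited raw counts per Ensembl gene, made with HTSeq 0.10.0 per the submitters' processing notes. The annotation, strand setting and overlap mode of the counting are not given in the sources used here. The Cuffnorm and Cuffdiff2 steps of the methods could not be repeated from counts. All 12 count columns were matched to mice by group and replicate number, and 54165 of 54232 gene IDs were named by GENCODE M21. The members and lists were chosen with earlier results of these data known.

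Counts were filtered (filterByExpr by group), scaled with TMM and tested with the quasi-likelihood test of edgeR 4.0.16 in R 4.3.3, without covariates. CPM are means and SD over mice. Standard errors come from the F statistic. Intervals are at 95%. A count of 0 allows up to 3 counts, which covers counting error only, as reads carry no molecular identifiers. CPM per kb uses exon bases of GENCODE M21 that no other gene on the same strand shares. Shared 50-base stretches were counted between transcripts of all genes. Permutation tests were exact and two-sided, on log2(CPM + 0.1), with a smallest p of 0.00126. No 2 libraries of a group were copies of each other, since the chi-square per degree of freedom was at least 21.1 over the 31 pairs.

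Per-library values of the PF livers, with the lowest, median and highest AF value, are given for selected members. These are the members with the largest changes, up to 6 in each direction per family, and the 3 with the highest level per length. DESeq2 1.42.0 and limma 3.58.1 served as alternatives. The steps were tested on simulated data. 1 partner gene (Sts) was not analysed here.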

Additional observations from a re-analysis of the deposited data

Results flagged for a closer look

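In the 5 PF and 7 AF livers, a value was singled out where its gap to the nearest liver was large against the range of its group (Dixon's criterion at 95%). This was run on both groups of the 40 tested members, and 4 of the 80 sets of values gave such a liver, against 4 expected by chance. In AF6, Ces1b was at 57.6 CPM, and the next AF liver was at 27.9 CPM. In AF7, Ugt1a5 was at 12.7 CPM, and the next AF liver was at 4.85 CPM. Ugt2b38 was at 0.372 CPM in AF6, where the next AF liver was at 0.0570 CPM. Ugt2b5 was at 945 CPM in PF2, where the next PF liver was at 782 CPM. For these values no cause was tested.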

How the results depend on the processing

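Settings other than the one reported were DESeq2, RLE, upper-quartile and no factors, limma-voom alone or with quality weights, 2 filters on low counts, thinning to the smallest library, the replicate number as a block, and each library left out in turn. Over these 22 settings, 873 values of the tested members were obtained, and no called member changed direction. The sign changed in 6 members without a call (Ces1g, Ces2e, Ces2g, Ugt1a1, Ugt2b34 and Ugt2b5). A call was lost in 29 and gained in 52 of them, and 16 of the 21 called members kept their call in every setting that tested them (Ces2h was tested in 20), while 14 of the 19 without a call gained one in at least 1 setting. The SULT genes called went from 5 to 8 with limma-voom and quality weights. With the replicate block they were also 8, and the CES genes called went from 6 to 10. Over the settings with all libraries, the UGT genes called were 10 to 14. The numbers pair no samples by the labels, and same-numbered livers deviated together only weakly (correlations of -0.0760 to 0.115). Numbers 6 and 7 occur in AF only, so under the block AF6 and AF7 add nothing to the comparison of AF with PF. Values under the block therefore rest on the livers numbered 1 to 5. Among the 16 lower members, the highest AF value was in AF6 for 7 and in AF7 for 4. Ugt2b35 lost its call under the block (adjusted p = 0.114). With limma-voom or the block, some falls were also larger by over 1.5 times as a plain fold, not as a log2 value. Log2 fold changes reached -5.83 for Ces3b (reported -4.01), -5.45 for Sult2a7 (-4.45) and -4.25 for Ugt1a5 (-3.42). They reached -7.39 for Ugt2b38 (-5.79), -1.98 for Ugt2a3 (-1.34) and -1.79 for Ces1e (-1.14). Leaving out 1 library gave 4642 to 6497 genes called in all, 8 to 12 UGT, 4 to 7 SULT, 5 to 8 CES and 16 to 22 partner genes. Library totals without TMM factors moved the median log2 fold change of all genes from 0.04 to 0.40, and 87.3% of calls were then higher (6458 higher and 938 lower), against 55.3% in the reported fit (3116 and 2519). In that setting 16 of 41 partner genes changed sign, 1 of them a called gene (Papss1, to 0.0812) and 15 without a call in the reported fit, of which Pon2 (to 0.296) was then called. The cause of these shifts was not tested. On simulated counts with 200 of 13990 genes changed, 136 were recovered, 18 of 50 at a 1.5-fold and 46 of 50 at a 4-fold change. Small changes can thus be missed at this depth and number of livers. The simulation changed a far smaller share of genes than the 39.8% called here and gave both groups the same dispersion. Its recovery therefore need not hold for these data.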
